A study of Mus musculus with 8 samples.

Results

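The comparison described here is the early response of MCE301 cells to butyrate: 2 arrays of cells given 2 mM sodium butyrate for 6 h were set against 2 arrays of the same cells at 0 h. All genes of the array were taken, and each gene was represented by 1 probe set, the one with the highest mean signal. Of 12393 genes with a probe set named for them alone, 7340 had enough signal to be tested. MCE301 is a colonic epithelial line from transgenic mice, and the cells of both groups carry a temperature-sensitive large T-antigen of simian virus 40, a protein known to bind p53 and RB. The labels name the medium additive, its dose and the hours, and give neither the culture temperature nor the number of separate cultures. Arrays at 12 and 24 h complete the series of 8 arrays. No untreated cells at 6 h are among the arrays, so butyrate and 6 h in culture cannot be told apart, and p-values measure the spread between arrays, which may be technical.

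Butyrate is a short-chain fatty acid made by gut bacteria from dietary fibre. It is a fuel of colonic epithelium and it inhibits zinc-dependent histone deacetylases, the enzymes that take acetyl groups off histones and other proteins. Genes called immediate early are those that many stimuli switch on quickly through transcription factors already present in the cell, and their products then act on further genes.

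The deposited values are linear signals (intensities). The 2% trimmed mean was 500.2 on each of the 4 arrays and the median signal was 140.1 to 144.6. Array 1 and array 2 of a time correlated at r = 0.982 at 0 h and 0.976 at 6 h over the 7340 genes, against 0.941 to 0.944 between the times. These correlations are across genes, which are not independent. All 12 epithelial markers, such as Epcam and the keratins Krt8 and Krt18, passed the filter, and their summed signal was 66359 and 73748 at 0 h and 65303 and 76852 at 6 h. All 10 mesenchymal, 5 endothelial, 4 neuronal or glial and 7 intestinal secretory markers with a probe set lay below the median signal on all 4 arrays. Of 7 immune markers with a probe set, 5 lay below it on all 4 arrays, and the other 2, Cd68 and Csf1r, were tested and not called. The markers of the labelled epithelial identity were thus present, and those of goblet, enteroendocrine and Paneth cells were at low signal.

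At 6 h, 665 genes were called higher (9.06% of the 7340) and 490 were called lower (6.68%), at an adjusted p under 0.05 in limma. The test used log2(signal + 32), and its log2 changes and fold values are on that scale, which understates changes of low signals. Values given as a number ± a standard error are log2 changes at 6 h, negative where the 6 h signal was lower. Changes were moderate in size: 214 genes rose and 120 fell by at least 1 on the log2 scale, and 11 rose and 4 fell by at least 2. The median log2 change was 0.83 among genes called higher and -0.79 among genes called lower, while the median size over all genes tested was 0.26. Genes called higher had a median signal of 300.9 at 0 h and 589 at 6 h, and genes called lower had 601 and 320. In every called gene the 2 arrays at 6 h lay on 1 side of the 2 arrays at 0 h, but so they did in 2209 genes for higher (30.1%) and 1992 for lower (27.1%), so this separation alone is common here. Remarks below that both arrays of a called gene moved or lay apart describe its values and add no support to its call.

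Calls spread over the whole range of levels, with a tilt among the falls. Of the 1835 genes with the lowest mean signals 8.45% were called higher and 9.16% lower, and of the 1835 with the highest 7.25% and 3.32%. Among the 7340 genes, 72 passed the signal filter only through the 0 h arrays and 48 of these were called lower, while 6 passed only through the 6 h arrays and 2 of these were called higher. The falls of Tlr3, Ifit2, Ifit3, Lif, Cutal, Scmh1, Kmt5b and Wnt5a, described below, belong to genes that passed only through the 0 h arrays, so a lower 6 h signal was built into their selection. Leaving out any 1 of the 4 arrays lowered the counts to 299 to 403 higher and 160 to 286 lower, and 187 and 108 genes kept their call under each of 13 alternatives in which they were tested. A gene named below as having risen or fallen is one of these unless an adjusted p under the alternatives that ended its call is given. Beside the number of genes called in a gene list, the range in brackets runs from the lowest to the highest number when 0 h array 1, 0 h array 2, 6 h array 1 and 6 h array 2 are left out in turn. Each list count is to be read against the shares over all genes, 9.06% higher and 6.68% lower. Some lists lie near these shares in both directions, such as junctions (11.1% and 7.41%) and KLF and Sp factors (8.33% and 8.33%).

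**Figure D1:**
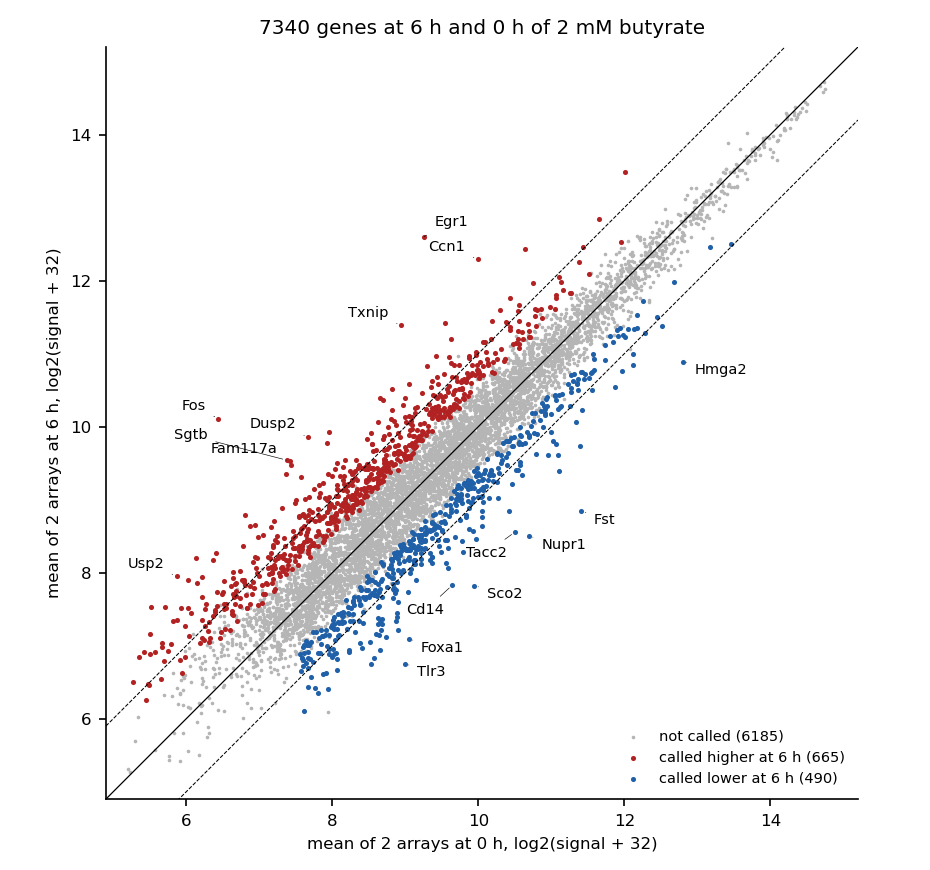
Mean log2(signal + 32) of the 2 arrays at 6 h (vertical axis) against that at 0 h (horizontal axis) for 7340 genes; the solid line is equality and the dashed lines are log2 changes of 1 and -1. The 665 genes called higher (red) and 490 called lower (blue) lie along the whole range of levels, and Fos and Egr1 lie farthest above the line.

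Transcription factors of the immediate early class held the largest rises. Of 20 tested genes in a list of immediate early factors and RNA regulators, 7 were called higher (5 to 7) and 1 lower (0 to 1), with a median log2 change of 0.39 against 0.01 over all genes. Fos, which pairs with Jun proteins to form AP-1, had signals of 43.8 and 67.6 at 0 h and 937 and 1232 at 6 h, a log2 change of 3.67 ± 0.22. Egr1, a zinc finger factor, had 646 and 521 at 0 h and 6391 and 6002 at 6 h (3.35 ± 0.16). Both went from a low or middling signal to a high one on both arrays. Atf3, which represses or activates genes through CRE and AP-1 sites, had 151 and 165 at 0 h and 558 and 653 at 6 h, a log2 change of 1.74 ± 0.16 (adjusted p = 0.000248). Nr4a1, an orphan nuclear receptor, had 491 and 506 at 0 h and 1559 and 1442 at 6 h (1.53 ± 0.15). In both genes all 6 h signals lay far above all 0 h signals. Zfp36, which directs decay of AU-rich messenger RNAs, changed by 0.99 ± 0.19 on the log2 scale (adjusted p up to 0.057 without 0 h array 2 or 6 h array 1).

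The Jun partners of Fos were not called. Jun had 263 and 356 at 0 h and 434 and 355 at 6 h, a log2 change of 0.33 ± 0.23, and Junb had 682 and 671 at 0 h and 885 and 1003 at 6 h (0.46 ± 0.18). The Jun arrays of the 2 times overlapped, and those of Junb did not overlap. Fosl1, another Fos family subunit, went the other way, from 593 and 575 to 329 and 404 (-0.63 ± 0.16, adjusted p up to 0.128 without 0 h array 1, 0 h array 2 or 6 h array 1 and with no filter or the 4 arrays fitted alone). Fosb did not pass the filter on low signals. The adjusted p was 0.385 for Jun and 0.116 for Junb, which does not show that they stayed the same.

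Promoters of immediate early genes are known for short binding elements close to the start, so the sequence there is shown for some of the leading genes. The windows are the 250 bases upstream of the annotated start of Fos, Txnip and Ccn1, which were among the 4 largest rises, and of Foxa1 and Ifit3, which were among the 15 largest falls; Foxa1 and Ifit3 were added after their values were seen. Each is written 5′ to 3′ on the gene's strand, from RefSeq on mouse build GRCm38.p6, and nothing in these arrays was measured at the windows themselves. Capitals mark matches, on either strand, to the 10 motifs of the next paragraph, where all but the CArG box, the binding site of SRF, are spelled out, and positions count bases upstream of the start.
Fos, chr12:85473640-85473889, plus strand: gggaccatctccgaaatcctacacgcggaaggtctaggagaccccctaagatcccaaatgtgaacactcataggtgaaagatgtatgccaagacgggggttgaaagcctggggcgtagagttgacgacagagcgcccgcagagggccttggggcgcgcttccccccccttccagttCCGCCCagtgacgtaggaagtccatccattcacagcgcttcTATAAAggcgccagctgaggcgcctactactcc
Txnip, chr3:96557707-96557956, plus strand: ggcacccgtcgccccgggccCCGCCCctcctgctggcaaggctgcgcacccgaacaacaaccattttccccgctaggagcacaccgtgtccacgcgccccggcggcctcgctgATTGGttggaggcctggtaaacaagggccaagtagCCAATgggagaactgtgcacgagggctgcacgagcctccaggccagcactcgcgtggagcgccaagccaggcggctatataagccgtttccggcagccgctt
Ccn1, chr3:145649986-145650235, minus strand: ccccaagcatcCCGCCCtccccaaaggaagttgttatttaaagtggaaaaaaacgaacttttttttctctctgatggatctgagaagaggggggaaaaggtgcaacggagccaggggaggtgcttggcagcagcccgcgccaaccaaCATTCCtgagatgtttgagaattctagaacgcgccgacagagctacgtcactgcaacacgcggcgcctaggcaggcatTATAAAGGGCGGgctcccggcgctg
Foxa1, chr12:57546112-57546361, minus strand: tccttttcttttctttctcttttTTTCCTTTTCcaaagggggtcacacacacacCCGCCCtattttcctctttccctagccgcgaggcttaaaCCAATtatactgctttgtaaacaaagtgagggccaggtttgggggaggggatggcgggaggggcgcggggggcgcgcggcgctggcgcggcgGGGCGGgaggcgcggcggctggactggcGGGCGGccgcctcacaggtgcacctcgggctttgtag
Ifit3, chr19:34583279-34583528, plus strand: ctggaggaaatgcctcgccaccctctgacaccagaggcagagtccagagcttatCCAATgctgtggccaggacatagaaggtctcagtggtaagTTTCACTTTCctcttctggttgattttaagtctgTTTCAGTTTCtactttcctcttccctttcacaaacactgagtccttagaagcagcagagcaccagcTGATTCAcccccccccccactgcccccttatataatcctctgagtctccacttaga
Only these motif spellings within 250 bases were searched, so a site spelled otherwise or farther upstream is not marked. In the Fos window a GC box match began 74 bases and a TATA box match 33 bases upstream of the start. Txnip had CCAAT box matches beginning at 137 and 102 and a GC box match at 230. Ccn1 had GC box matches at 239 and 19, a TATA box match at 25 and a match to the core of a TEAD site at 103. Ifit3 had matches to the core of the interferon response element at 156 and 122, an AP-1 match at 56 and a CCAAT box match at 196. Foxa1 had GC box matches at 196, 65 and 37, a CCAAT box match at 157 and an interferon element core match at 227.

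Over all called genes in the promoter table, the GC box and the CCAAT box had the widest gaps in percentage points between the higher and lower sets, and the EGR match, a rare one, the widest ratio. The table held 714 windows of 553 genes called higher, 557 windows of 392 genes called lower, 6532 windows of tested genes not called and 32851 windows in all. A GC box (GGGCGG) was found in 69.5% of windows of genes called higher, 55.5% of those called lower, 60.6% of those not called and 32.7% of all. A CCAAT box (CCAAT) was in 42.7%, 26.8%, 35.3% and 33.8% in the same order. The median GC content of the windows was 62%, 59.2%, 60.4% and 52.4%, so base composition moves with the GC box share, and its part in it was not tested. The match for EGR factors (GCGTGGGCG) was in 1.96% of windows of genes called higher, 0.54% of those called lower, 1.12% of those not called and 0.54% of all. Matches to AP-1 (TGANTCA) were in 4.9%, 4.67%, 4.39% and 6.75%, and those to the CRE (TGACGTCA) in 2.66%, 1.62%, 2.71% and 1.55%. The E-box (CACGTG) was in 8.26%, 7.36%, 8.91% and 6.02%, the TATA box (TATAAA) in 7%, 7%, 5.91% and 12.4%, and the TEAD core (GGAATG) in 12.0%, 11%, 10.4% and 12.6%. The interferon element core (GAAA and GAAA with any 2 bases between) was in 2.38%, 3.23%, 2.36% and 2.98%, and the CArG box was in 1.12%, 1.97%, 1.18% and 1.47%. The GC box and the EGR match can overlap, since both hold GGGCG. Windows of one gene overlap as well, so the shares are given as a description with no test.

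**Figure D2:**
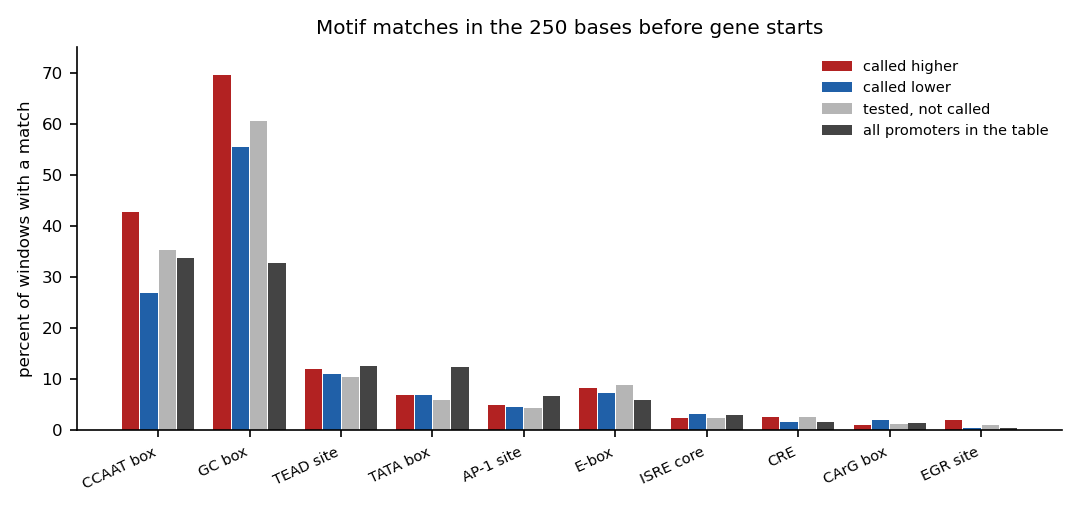
Percent of 250-base upstream windows with at least 1 match on either strand to each of 10 motifs (bars start at 0), for genes called higher, genes called lower, tested genes not called, and all promoters of the table. The bars for the GC box and the CCAAT box are highest for genes called higher and lowest of the 3 tested sets for genes called lower; the other 8 motifs are each in fewer than 13% of windows.

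Some feedback inhibitors of growth factor signalling rose. Of 17 tested genes for MAP kinase feedback, 3 were called higher (2 to 3) and 0 lower (5 at an unadjusted p under 0.05), and the list's median log2 change was -0.13. Dusp2, a phosphatase of MAP kinases, had 206 and 143 at 0 h and 926 and 872 at 6 h, a log2 change of 2.19 ± 0.21 (adjusted p = 0.00031). Errfi1, an inhibitor of the EGF receptor, had 728 and 791 at 0 h and 2245 and 2409 at 6 h (1.58 ± 0.15). Lrig1, which also restrains ERBB receptors and marks intestinal stem cells, had 101 and 100.3 at 0 h and 359 and 310.1 at 6 h (1.46 ± 0.19). In each of these genes both 6 h arrays were well above both 0 h arrays. Dusp1 and Dusp6, feedback phosphatases induced through ERK in many cells, were not called, with log2 changes of 0.33 ± 0.16 and 0.16 ± 0.17. The EGF family ligands split: Ereg fell from 396 and 335 to 144 and 109.7 (-1.33 ± 0.18), while Hbegf changed by 0.79 ± 0.17 (adjusted p up to 0.0939 without 0 h array 1 or 6 h array 1 and with no filter).

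The CCN proteins Ccn1 and Ccn2, secreted matricellular proteins transcribed through YAP and TEAD among other factors, rose. Ccn1 had 1013 and 961 at 0 h and 5292 and 4704 at 6 h, a log2 change of 2.30 ± 0.16, and Ccn2 had 3901 and 4316 at 0 h and 10696 and 12281 at 6 h (1.47 ± 0.17). Other genes of the same list fell. Ajuba, a LIM protein that restrains LATS kinases, had 2165 and 2189 at 0 h and 709 and 578 at 6 h, a log2 change of -1.72 ± 0.20. Ankrd1, another much used YAP target, changed by -0.80 ± 0.16 (adjusted p = 0.063 without 0 h array 2), and Yap1 itself by -0.84 ± 0.24 (adjusted p up to 0.231 without 0 h array 1, 0 h array 2 or 6 h array 2 and with a pseudocount of 16, no filter, the 4 arrays fitted alone or all probe sets kept). Of 18 tested members, 2 were called higher (2 each time) and 4 lower (1 to 5), and the median was -0.29, so the 2 CCN genes did not stand for the list.

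In the activin, BMP and TGF-beta list, ligand-binding inhibitors, a ligand, a receptor and targets changed. Fst encodes follistatin, a secreted protein that binds activins, and it had the largest fall of all genes tested, from 2519 and 2882 to 425 and 431, a log2 change of -2.57 ± 0.20 (adjusted p = 0.000103). Fstl3, a relative that binds the same ligands, rose from 13 and 28.6 to 161 and 146 (1.83 ± 0.21). The pair thus moved in opposite directions on both arrays of each time. Bmp4, a ligand, had 53.3 and 33.2 at 0 h and 196 and 150.5 at 6 h (1.45 ± 0.19), and Id1, an inhibitor of basic helix-loop-helix factors and a direct BMP target, had 179 and 260.1 at 0 h and 793 and 1127 at 6 h (1.98 ± 0.23). Tgfbr2, a TGF-beta receptor, and Tgif1, a corepressor of SMADs, fell, with log2 changes of -1.21 ± 0.17 and -1.29 ± 0.16. Of 26 tested members, 4 were called higher (3 each time) and 5 lower (3 to 5).

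Hey1, a repressor that acts downstream of Notch, had 13 and 14.9 at 0 h and 137 and 169 at 6 h, a log2 change of 2.00 ± 0.16. Both 0 h signals were below the pseudocount, so the fold is a low estimate. The Notch feedback regulator Nrarp changed by 1.39 ± 0.27 (adjusted p up to 0.0687 without 0 h array 2 or 6 h array 1 and with no filter), and the other 17 of 19 tested Notch genes were not called. Of 21 tested genes in the Wnt list, 2 were called higher (0 to 1) and 4 lower (1 to 3). Wnt5a, a ligand of the non-canonical branch, fell from 307 and 305 to 108 and 80.3 (-1.43 ± 0.25), and Wnt7a changed by -1.01 ± 0.19 (adjusted p = 0.0545 without 0 h array 2).

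**Figure D3:**
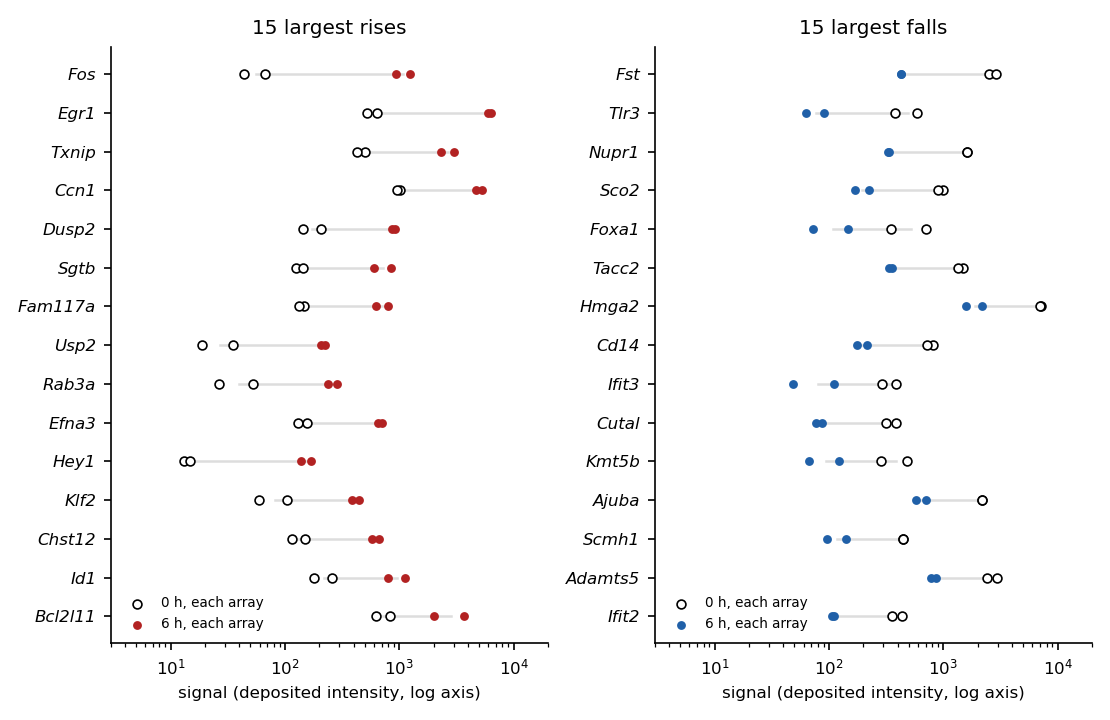
Signal of each array on a log axis for the 15 genes with the largest rises (left) and the 15 with the largest falls (right); open circles are the 2 arrays at 0 h, filled circles the 2 arrays at 6 h, and grey lines join the means. In every gene shown the circles of the 2 times are apart, and spreads between the 2 arrays of a time are wide for some low signals, such as those of Foxa1 and Ifit3 at 6 h.

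Some genes of microbial sensing and of the interferon response fell. Tlr3, the endosomal receptor for double-stranded RNA, had 594 and 382 at 0 h and 62.5 and 91.4 at 6 h, a log2 change of -2.24 ± 0.25. Cd14, the coreceptor for lipopolysaccharide, had 817 and 722 at 0 h and 215 and 178 at 6 h (-1.81 ± 0.24). Their 6 h signals were below both 0 h signals on both arrays. The interferon-induced genes Ifit3 and Ifit2 went from 294 and 387 to 112 and 48.9 and from 439.6 and 354 to 109.9 and 105, log2 changes of -1.78 ± 0.31 and -1.61 ± 0.18. Other members of the same list rose: Irf8, an interferon regulatory factor, had 161 and 172 at 0 h and 372 and 435 at 6 h (1.13 ± 0.16), and Usp18, which removes ISG15 and dampens interferon receptor signalling, changed by 1.13 ± 0.17. Of 20 tested members, 3 were called higher (2 to 3) and 6 lower (4 to 6). With the stricter filter, which tests genes above the median of all signals on at least 4 of the 8 arrays, 2 were called lower. Tlr3, Tlr4, Ifit2 and Ifit3 are then not tested, since they exceeded that median on the 0 h arrays alone. Of 16 tested chemokine, cytokine and NF-kB genes, 2 were called higher (0 to 2) and 6 lower (1 to 4), with a median of -0.53. Lif, a cytokine of the interleukin 6 family, fell from 275 and 261 to 68.6 and 112 (-1.32 ± 0.22) and was the member of that list whose call held under all alternatives in which it was tested. Lif too exceeded that median on the 0 h arrays alone, so the stricter filter does not test it. A lower 6 h signal was thus built into its selection.

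Of 16 tested epithelial and forkhead transcription factors, 2 were called higher (0 to 1) and 3 lower (3 each time). The calls of Foxa1, Foxa2 and Foxc1 held under all alternatives in which they were tested, and those of Elf3 and Foxo1, the members called higher, did not. The pioneer factor Foxa1 had 705 and 346 at 0 h and 147 and 72.1 at 6 h (-1.95 ± 0.32), and Foxa2 had 350.4 and 318 at 0 h and 108 and 93.4 at 6 h (-1.47 ± 0.18). The arrays of Foxa1 differed widely within each time without overlapping between the times, and its adjusted p reached 0.0336 under the alternatives. Foxc1, a forkhead factor of mesoderm and neural crest, fell, with a log2 change of -1.44 ± 0.20. Klf2, a Krüppel-like factor, rose from 104 and 59.1 to 441 and 385 (1.99 ± 0.20), while Sp1, the broadly expressed factor that binds GC boxes, fell from 1869 and 1638 to 932 and 922 (-0.89 ± 0.16). Klf4 and Klf6 were not called, with log2 changes of 0.30 ± 0.18 and -0.22 ± 0.20, and nor was the intestinal homeobox factor Cdx2 (-0.43 ± 0.20). Krt20, a keratin of differentiated colonic surface cells, changed from 1119 and 1634 to 2994 and 3949, a log2 change of 1.33 ± 0.24 (adjusted p = 0.0511 without 0 h array 1). It was the 1 called gene among 16 tested keratin and intestinal differentiation genes. Of 15 tested nuclear receptors, 0 were called higher (2 at an unadjusted p under 0.05) and 5 lower (0 to 1), with a median of -0.41. None of these 5 calls held under all alternatives. Nr2f2, an orphan receptor of the COUP-TF class, had the largest of these changes, -0.83 ± 0.19 (adjusted p up to 0.0927 without 0 h array 1, 0 h array 2 or 6 h array 2 and with no filter).

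Genes of histone deacetylases, of sirtuins and of their complexes were called at about the share of all genes. Among the zinc-dependent deacetylases tested, Hdac7 alone was called in the main test. Of 17 tested deacetylase and sirtuin genes, 2 were called higher (1 to 2) and 1 lower (1 each time), which is 11.8% and 5.88% against 9.06% and 6.68% of all genes tested. Hdac7, a class IIa enzyme, fell from 806 and 959.5 to 368 and 444 (-1.06 ± 0.17), and Sap30, a subunit of the SIN3 complex, rose from 645 and 687 to 1179.8 and 1243 (0.83 ± 0.15). Hdac1 had 907 and 876 at 0 h and 1503 and 1101 at 6 h, a log2 change of 0.51 ± 0.18 that was not called in the main test (adjusted p = 0.0786) and was called with the arrays paired by number (adjusted p = 0.0396). Hdac3 changed by 0.44 ± 0.17 (adjusted p = 0.118, and 0.0483 with the pairing). With the pairing 5 genes of this list were called higher. Of 24 tested acetyltransferase, bromodomain and P-TEFb genes, 0 were called higher (0 to 1; 2 at an unadjusted p under 0.05) and 4 lower (2 to 4), or 2 with the stricter filter, with a median of -0.27. The coactivator Crebbp changed by -1.24 ± 0.22 (adjusted p = 0.0527 without 0 h array 1), and Brd2 and Hexim1, often used as markers of disturbed bromodomain function, were not called (-0.01 ± 0.21 and 0.12 ± 0.17).

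Several genes of chromatin-packing proteins were called. Hmga2, an architectural protein of embryonic and tumour cells, had 7206 and 6965 at 0 h and 2202 and 1577 at 6 h, a log2 change of -1.91 ± 0.21. Hmgb2, a proliferation-linked HMG box protein, had 1962 and 1929 at 0 h and 768 and 739.5 at 6 h (-1.33 ± 0.18). The linker histone H1f2 moved the other way, from 1552 and 1589 to 5346 and 5699.5 (1.79 ± 0.17). All 3 had non-overlapping arrays, as every called gene did. Kmt5b, which methylates histone H4 at lysine 20, had 486 and 283 at 0 h and 66.4 and 122 at 6 h (-1.72 ± 0.27). It is on neither the list of histone and HMG genes nor that of methylation enzymes. Of 15 tested histone and HMG genes, 2 were called higher (1 to 2) and 4 lower (2 to 3). Cross-hybridisation between near-identical histone genes was not tested.

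Cell cycle genes of G1 moved both ways. Ccnd1 encodes cyclin D1, which drives the G1 to S step, and it had 11903 and 10680.1 at 0 h and 5576 and 5968 at 6 h, a log2 change of -0.96 ± 0.15. Myc, a growth-promoting factor, had 1077 and 1134 at 0 h and 599.5 and 397 at 6 h (-1.13 ± 0.19). The CDK4 and CDK6 inhibitor Cdkn2d had 437 and 342 at 0 h and 1048 and 783 at 6 h (1.16 ± 0.19), whereas Cdkn1a and Cdkn1b, the inhibitors p21 and p27, were not called: Cdkn1a had 3717 and 3876 at 0 h and 2602 and 2687 at 6 h (-0.52 ± 0.18) and Cdkn1b had 294 and 303 at 0 h and 324 and 290.4 at 6 h (0.04 ± 0.16). The Cdkn1a arrays did not overlap, with the 6 h arrays the lower ones, and its adjusted p was 0.0767, or 0.0429 in a robust trended fit. Of 32 tested G1, RB-E2F and MYC-MAX genes, 5 were called higher (1 to 5) and 3 lower (2 each time). Of 40 DNA replication genes, 1 was called higher (0 each time) and 3 lower (0 to 2), and of 42 mitosis genes, 0 were called higher (1 at an unadjusted p under 0.05) and 4 lower (1 to 2). The mitosis list had a median of -0.24, and Ccna2, cyclin A2, changed by -0.81 ± 0.16 (adjusted p = 0.0548 without 0 h array 2).

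Genes that control mitochondrial apoptosis moved on both sides. Bcl2l11, which encodes the pro-apoptotic BH3-only protein BIM, had 828 and 622 at 0 h and 3681 and 2002 at 6 h, a log2 change of 1.87 ± 0.30. The 6 h arrays lay apart from each other and both above the 0 h arrays, and its 4 other kept probe sets had log2 changes of 1.42, 1.74, 1.67 and 1.05. Bnip3, a BH3 protein also known from hypoxia, rose by 1.01 ± 0.16, while Bcl2l1, the gene of the protective BCL-XL, fell from 1576 and 1312 to 645 and 652 (-1.11 ± 0.20). Of 22 tested p53 target and DNA damage genes, 5 were called higher (2 to 3) and 2 lower (1 to 2), and of 19 tested BCL2 family genes, 4 were called higher (2 to 4) and 2 lower (1 to 3). Plk3, a stress-activated kinase, rose (1.24 ± 0.19) and Phlda3, an AKT repressor and p53 target, fell (-1.28 ± 0.17), so this list too had no single direction.

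Txnip, which binds thioredoxin and limits glucose uptake, had 498 and 424 at 0 h and 2323 and 3040.2 at 6 h, a log2 change of 2.45 ± 0.18 (adjusted p = 0.000103). Its relative Arrdc4 was not called, with 293 and 294 at 0 h and 409 and 276 at 6 h (0.18 ± 0.25). Slc2a1, the glucose transporter GLUT1, had 622 and 800.4 at 0 h and 1513 and 1828 at 6 h (1.2 ± 0.17), and Pfkp, a phosphofructokinase of glycolysis, had 67 and 53 at 0 h and 149 and 167 at 6 h (1.05 ± 0.16). Both rose on both arrays, and of 24 tested glycolysis and hypoxia genes, 6 were called higher (4 to 5) and 0 lower (1 at an unadjusted p under 0.05). Of 24 tested genes of fatty acid oxidation and ketogenesis, 4 were called higher (1 to 2) and 0 lower (1 at an unadjusted p under 0.05), among them Cpt1a, the carnitine transferase that admits fatty acids to mitochondria (0.83 ± 0.17, adjusted p = 0.0582 without 0 h array 1). Of 24 tested genes of cholesterol synthesis and uptake, 4 were called higher (1 to 2) and 0 lower (3 at an unadjusted p under 0.05). The member of this list that kept its call was Srebf1, a master transcription factor of lipid synthesis, which rose from 1430.3 and 1487 to 2873 and 3192 (1.04 ± 0.16). Sco2, a copper chaperone for cytochrome c oxidase, fell from 1003 and 904 to 168 and 225 (-2.12 ± 0.17), and of 19 tested assembly and mitochondrial protease genes, 2 were called higher (0 to 1) and 2 lower (1 each time).

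Clock genes were called in both directions. Of 15 tested clock genes, 6 were called higher (4 to 6) and 3 lower (1 to 2), with a median of 0.29. Cry2, a repressor of the clock, had 112 and 73.4 at 0 h and 436 and 314 at 6 h (1.71 ± 0.21), and Arntl, the clock activator BMAL1, had 171 and 215 at 0 h and 498 and 381 at 6 h (1.06 ± 0.18). Usp2, a deubiquitinase under clock control, had 35.1 and 18.8 at 0 h and 225 and 208 at 6 h (2.09 ± 0.28) with both 0 h arrays low. Nfil3, a repressor of D-box genes, rose by 1.1 ± 0.19, and Bhlhe40, a repressor of clock E-boxes, fell from 1537 and 1161 to 360.1 and 507 (-1.57 ± 0.21). Per1 changed by 1.23 ± 0.24 (adjusted p up to 0.068 without 0 h array 2 and with no filter). Time of day cannot be told apart from butyrate here, since no untreated cells at 6 h are among the arrays.

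Stress responses gave mixed signs. Ddit3, the gene of the pro-apoptotic factor CHOP, rose from 310.0 and 447 to 1129 and 1512 (1.73 ± 0.22), while Nupr1, a stress-inducible chromatin protein, fell from 1618 and 1623 to 332 and 328, a log2 change of -2.19 ± 0.15 (adjusted p = 6.96e-05). Both belong to the integrated stress response and ER stress list, where of 38 tested genes, 5 were called higher (2 to 4) and 3 lower (1 to 3), with a median of 0.00. Trib3 and Chac1, other targets of that response, changed by -0.74 ± 0.18 (adjusted p up to 0.112 without 0 h array 1, 0 h array 2 or 6 h array 2 and with no filter) and 0.62 ± 0.15 (adjusted p up to 0.0917 without any 1 of the 4 arrays and with no filter). Sgtb, a co-chaperone of HSP70, had 124 and 145 at 0 h and 603 and 842 at 6 h (2.16 ± 0.19). It led the heat shock and chaperone list, in which of 29 tested genes, 5 were called higher (1 to 3) and 0 lower (1 at an unadjusted p under 0.05). Metallothionein Mt2, which binds zinc and copper, rose from 892 and 619 to 1954 and 1946 (1.35 ± 0.20), and Slc40a1, the iron exporter ferroportin, rose by 1.06 ± 0.18. Of 30 tested NRF2 and glutathione genes, 3 were called higher (1 to 3) and 1 lower (0 to 1), and of 28 tested genes of metal handling, 4 were called higher (2 to 3) and 1 lower (1 each time).

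Several genes of vesicle traffic and of neurons rose. Of 27 tested genes of this list, 8 were called higher (4 to 6) and 0 lower (0 to 1; 3 at an unadjusted p under 0.05), with a median of 0.24. Rab3a, a GTPase of regulated secretion best known from synapses, had 52.5 and 26.5 at 0 h and 288 and 236 at 6 h, a log2 change of 2.06 ± 0.20. Rab3d, of secretory granules in exocrine cells, rose by 1.08 ± 0.18, and Kif5c, a kinesin heavy chain of neurons, had 16.1 and 2.5 at 0 h and 67.4 and 102 at 6 h (1.5 ± 0.21). Rab3a and Kif5c were low on both 0 h arrays, Kif5c below the pseudocount, and higher on both 6 h arrays. With no filter on signal, 3 were called higher. The 4 neuronal and glial markers with a probe set stayed below the median signal on all 4 arrays. Their summed signals were 109 and 146 at 0 h and 158 and 118 at 6 h. Gfap, a glial gene, held 59.8 and 95.7 of these at 0 h and 85.3 and 8.2 at 6 h. Signals this low do not show whether the markers changed. Efna3, an ephrin ligand, had 129 and 155 at 0 h and 703 and 658 at 6 h (2.04 ± 0.15), and Ephb3, an Eph receptor and Wnt target of the crypt, rose from 275 and 195 to 688 and 619 (1.38 ± 0.19). Of 10 tested ephrins and Eph receptors, 3 were called higher (2 to 4) and 1 lower (0 each time).

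Several extracellular proteases fell. Of 17 tested proteases and inhibitors, 2 were called higher (0 to 2) and 5 lower (3 to 4). Adamts5, an aggrecanase, had 2399.5 and 2926 at 0 h and 788 and 859.8 at 6 h (-1.65 ± 0.17), and its second probe set had a log2 change of -2.10. Adamts1 fell from 2276 and 2020.4 to 897 and 633 (-1.47 ± 0.20), and Mmp14, a membrane-bound collagenase, fell from 864 and 1083 to 324 and 315 (-1.51 ± 0.22). Mmp10, a stromelysin, went up, from 19.9 and 17.6 to 52.6 and 158 (1.32 ± 0.32, adjusted p up to 0.102 without 0 h array 1, 0 h array 2 or 6 h array 2 and with no filter). Of 35 tested actin and SRF target genes, 6 were called higher (2 to 5) and 1 lower (1 each time). Rhob, a GTPase of actin and endosomes, rose by 1.26 ± 0.20 and Fhl2, a LIM cofactor, fell, with a log2 change of -1.07 ± 0.16. Of 27 tested junction genes, 3 were called higher (1 to 3) and 2 lower (0 to 2), and of 27 tested integrin and matrix genes, 4 were called higher (0 to 1) and 2 lower (0 to 1). Pkp2, a desmosomal plakophilin, rose (0.89 ± 0.15), and Cdh1, E-cadherin, changed by 0.68 ± 0.18 (adjusted p up to 0.178 without 0 h array 1, 0 h array 2 or 6 h array 1 and with no filter).

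Some genes of ribosome assembly fell, and amino acid transporters were called in both directions. Of 43 tested ribosome biogenesis genes, 1 was called higher (0 to 1) and 7 lower (3 to 6), with a median of -0.12. Gnl3, nucleostemin, fell from 1349 and 2249 to 750.2 and 773 (-1.16 ± 0.22), and Utp20, of the small subunit processome, fell, with a log2 change of -0.90 ± 0.16. Of 10 tested amino acid transporters, 3 were called higher (0 to 1) and 4 lower (1 to 2). Slc38a2, a sodium-coupled neutral amino acid transporter, fell from 3881 and 3544 to 1628 and 1320.4 (-1.32 ± 0.17) and was the member of that list whose call held. Of 4 tested butyrate transporters and receptors, 1, the efflux pump Abcg2, was called higher (0.97 ± 0.28, adjusted p up to 0.233 without 0 h array 1, 0 h array 2 or 6 h array 1 and with no filter or all probe sets kept). Of 20 tested aminoacyl-tRNA synthetases, 0 were called higher (1 at an unadjusted p under 0.05) and 1 lower (0 to 1), and of 22 tested histone and DNA methylation enzymes, 1 was called higher (0 to 1) and 1 lower (0 each time). The methyltransferase gene Kmt5b, whose fall is described above, is not on that list. Of 37 tested lysosome and autophagy genes, 4 were called higher (1 to 4) and 1 lower (0 each time), and Neu1, the lysosomal sialidase, rose from 864 and 860.3 to 1519 and 1631 (0.84 ± 0.15).

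Several of the largest changes were of genes not described above. Fam117a, a gene of little known function, had 146 and 134 at 0 h and 802 and 621 at 6 h (2.10 ± 0.17), and Chst12, a chondroitin sulfotransferase of the Golgi, had 151 and 116 at 0 h and 574 and 670.3 at 6 h (1.99 ± 0.17). Both rose on both arrays. Tacc2, a centrosomal coiled-coil protein, fell from 1491 and 1349.7 to 358 and 332 (-1.94 ± 0.19), and Scmh1, a Polycomb group protein, changed from 445 and 444 to 96.7 and 139.8 (-1.68 ± 0.37, adjusted p up to 0.0766 without 0 h array 1, 0 h array 2 or 6 h array 1 and with no filter). Cutal, a member of the metal handling list named for its likeness to the copper tolerance protein CutA, fell from 389 and 314 to 76.4 and 87.7 (-1.74 ± 0.23). Of the 30 genes with the largest rises and falls, 7 had other kept probe sets, 11 in all, and all 11 were called in the gene's direction. Over all called genes, 591 of 607 other kept probe sets (97.4%) moved in the direction of the gene.

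**Figure D4:**
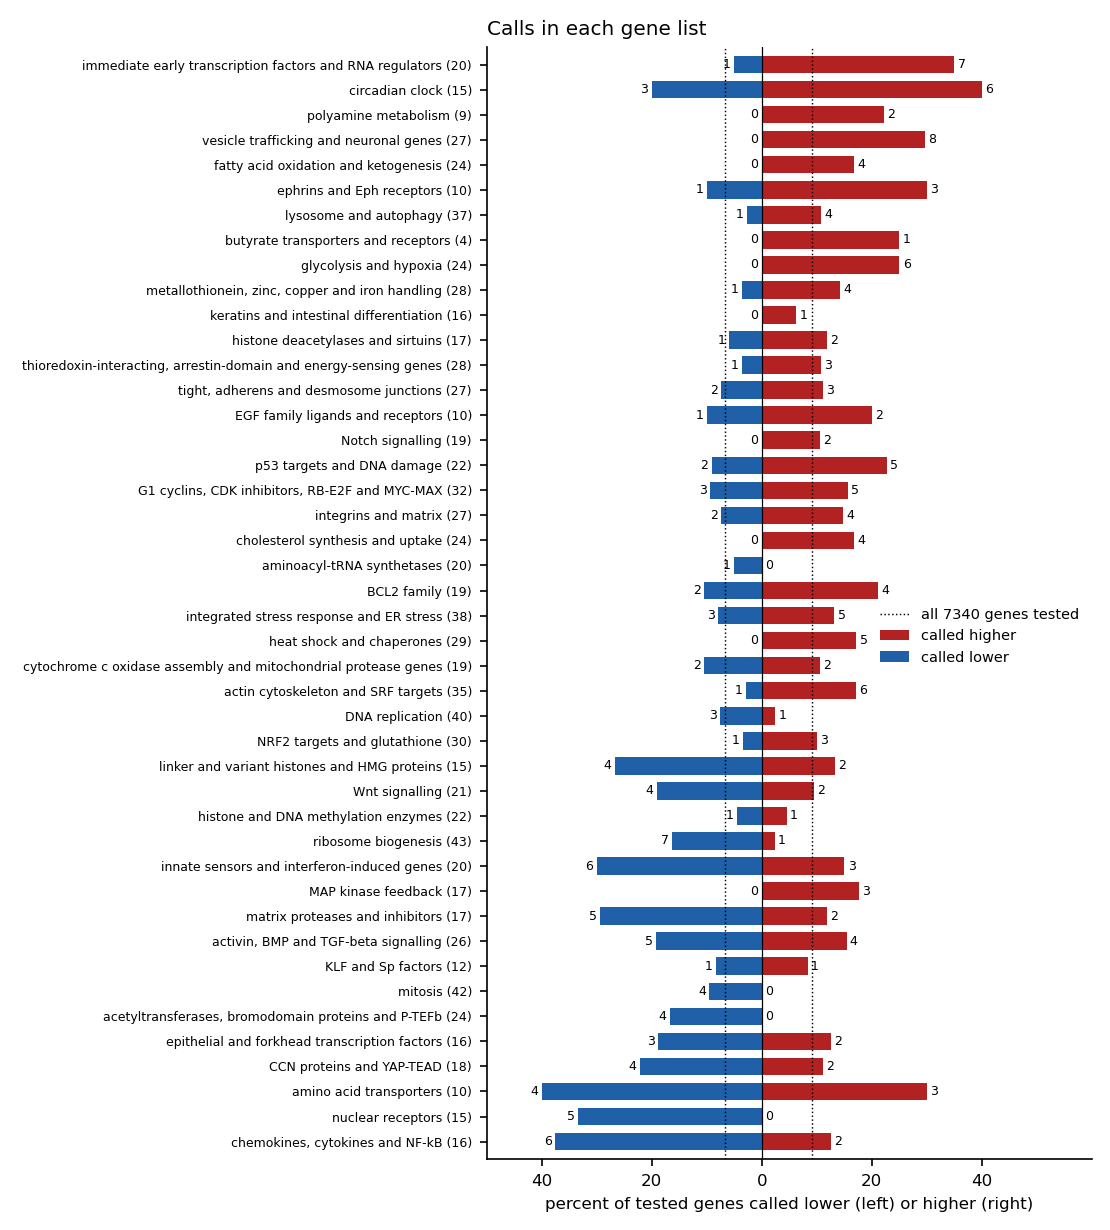
For each of 44 gene lists, the percent of its tested genes (number in brackets) called higher (red, right) and called lower (blue, left) at 6 h, with the number of called genes at the bar's end; lists are ordered by their median log2 change and dotted lines mark 9.06% and 6.68%, the shares over all 7340 genes. The clock and immediate early lists reach farthest to the right, and the amino acid transporter and chemokine lists farthest to the left; small lists move by large steps.

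Of 12 tested KLF and Sp factors, 1 was called higher (1 each time) and 1 lower (1 each time). Of 28 tested thioredoxin-interacting, arrestin-domain and energy-sensing genes, 3 were called higher (1 to 2) and 1 lower (0 to 1). Of 9 tested polyamine genes, 2 were called higher (0 to 1) and 0 lower (1 at an unadjusted p under 0.05), and of 10 tested EGF family ligands and receptors, 2 were called higher (1 to 2) and 1 lower (1 each time). The lists together hold 972 tested genes, of which 124 were called higher and 94 lower. Many of the small counts above depend on the setting: of the counts of list calls in each direction under each of 13 alternatives, 312 of 1144 differed from the main count by more than 1.5 times. The alternative with all probe sets counts probe sets and not genes, so its part of these counts is in another unit. With the arrays paired by number, the lists whose counts moved by more than that were, for genes called higher, deacetylases (5), acetyltransferases (2), DNA replication (2), lysosome (7), metal handling (8), polyamine metabolism (4) and nuclear receptors (1), and, for genes called lower, immediate early (2), MAP kinase feedback (2), Notch (1), KLF and Sp (3), G1 (5), mitosis (7), thioredoxin-interacting and energy-sensing (2), cholesterol (2), polyamine metabolism (1), vesicle (2) and junctions (4). The lists were chosen with earlier results of these arrays known, so no list's share is independent evidence of its direction.

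The later arrays were set beside the early ones for some of the leading genes and for Hmgb2. No rule set in advance chose these genes, so they do not show how the leading genes behaved as a set. The 12 and 24 h arrays are given side by side with the 6 h values, and comparisons with the same 0 or 6 h arrays share those arrays. Fos had 2425 and 1778 at 12 h and 1906 and 1569.9 at 24 h, and Txnip had 6142 and 7215 at 12 h and 8209 and 9043 at 24 h. For both genes all 4 later signals were above both 6 h signals. Fst had 232 and 269 at 12 h and 140.5 and 226 at 24 h, and Hmgb2 had 392 and 449 at 12 h and 60.9 and 96.5 at 24 h, with all 4 later signals below both 6 h signals. Hey1 had 166 and 176 at 12 h and 183 and 170.0 at 24 h, a range that overlapped its 6 h signals. Nupr1 had 332 and 376 at 12 h and 361 and 353 at 24 h, and Foxa1 had 139.9 and 100.4 at 12 h and 133 and 127 at 24 h, far below their 0 h signals.

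Other early rises were lower again at 12 h. The called rises with the largest drop from 6 to 12 h were Rasl11b, Lrr1, Dimt1, Purg and Lrig1, given here as values with no test of the drop. Lrr1, a subunit of a ubiquitin ligase that acts on the replication machinery, had 186 and 161 at 0 h and 494 and 378 at 6 h, and then 246 and 221 at 12 h and 41.7 and 57.6 at 24 h. Purg, a purine-rich element binding protein, had 104 and 137 at 0 h and 326 and 294 at 6 h and then 169 and 161 at 12 h and 140.3 and 156 at 24 h. Lrig1 had 215 and 157 at 12 h and 170.0 and 231 at 24 h after its 6 h signals of 359 and 310.1. The choice of these genes fixed mean 6 h signals above those at 0 and 12 h. For Lrr1, Purg and Lrig1 both 24 h signals were below both 6 h signals as well. Rasl11b, a RAS-like GTPase, and Dimt1, an rRNA methyltransferase, had calls that did not hold: 0.83 ± 0.24 (adjusted p up to 0.27 without any 1 of the 4 arrays and with a pseudocount of 16, no filter, quantile normalization or all probe sets kept) and 0.75 ± 0.17 (adjusted p up to 0.0934 without 0 h array 1, 0 h array 2 or 6 h array 1 and with no filter).

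The called falls with the largest rise from 6 to 12 h were Mmp13, Ptgs2, Il24, Has1 and Pigc. Il24, a cytokine of the interleukin 10 family, had 1419 and 1505 at 0 h and 625 and 664 at 6 h (-1.14 ± 0.16), and then 1386 and 1196 at 12 h and 3084 and 3628 at 24 h. Pigc, of glycosylphosphatidylinositol anchor synthesis, had 422 and 449 at 0 h and 213 and 162 at 6 h (-1.1 ± 0.17) and then 349 and 344 at 12 h and 350.1 and 379 at 24 h. The choice of these genes fixed mean 6 h signals below those at 0 and 12 h. For Il24 and Pigc both 24 h signals were above both 6 h signals as well. Ptgs2, the inducible cyclooxygenase COX-2, had 2142 and 2311 at 0 h and 1197 and 1560.3 at 6 h (-0.69 ± 0.19, adjusted p up to 0.193 without 0 h array 1, 0 h array 2 or 6 h array 1 and with no filter) and then 2831 and 3632 at 12 h and 2667 and 2234 at 24 h. Mmp13, a collagenase, changed by -0.84 ± 0.20 at 6 h (adjusted p up to 0.149 without 0 h array 1 or 6 h array 2 and with no filter) and went on to 319.5 and 308 at 12 h and 592 and 616 at 24 h. Has1, a hyaluronan synthase, changed by -1.23 ± 0.31 (adjusted p up to 0.144 without 0 h array 1, 0 h array 2 or 6 h array 2 and with no filter).

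**Figure D5:**
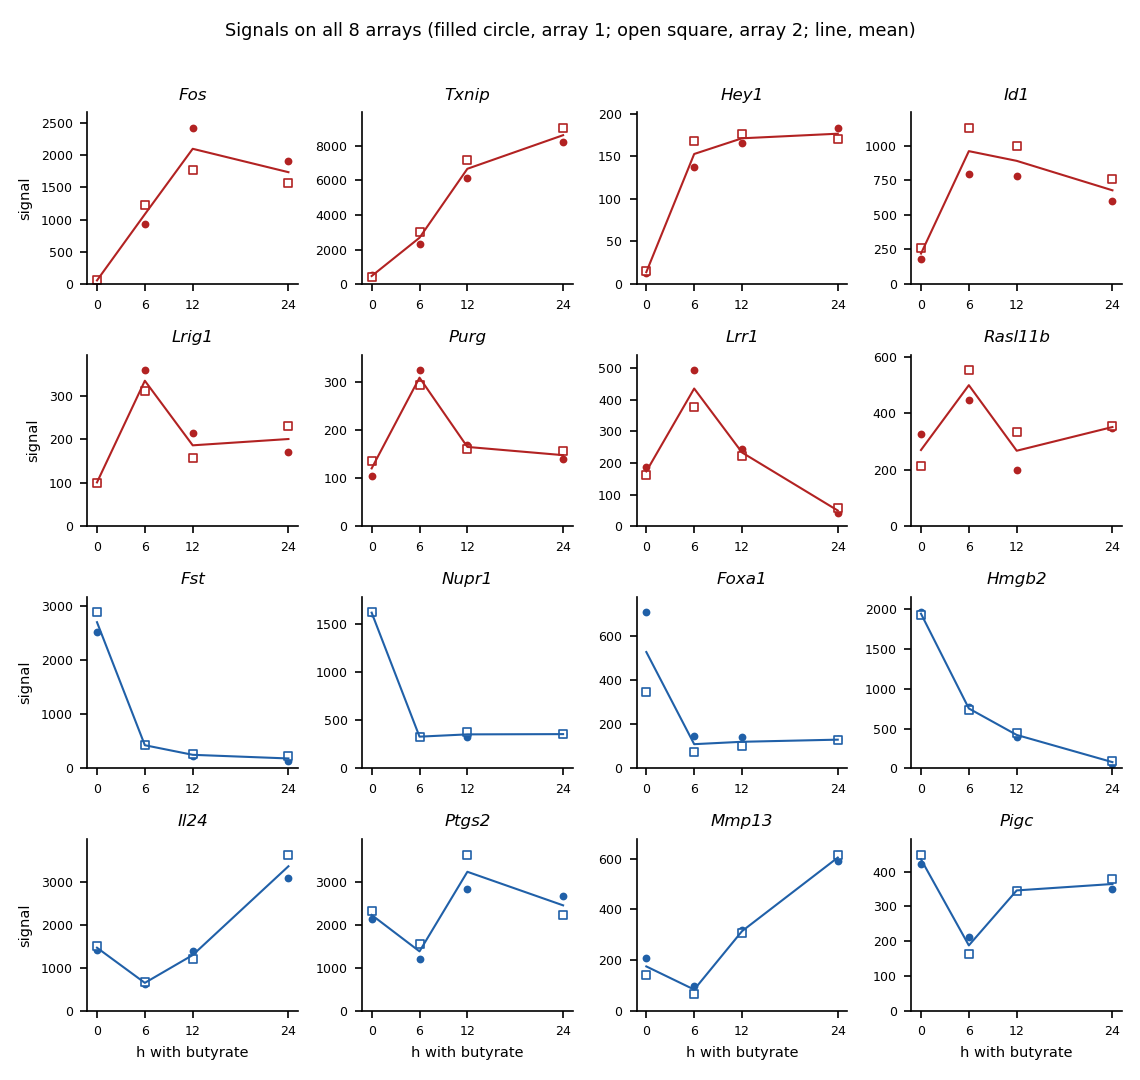
Signals of 16 genes on all 8 arrays against hours with butyrate (each panel has its own signal axis from 0; filled circles are array 1, open squares array 2, lines join means). Red genes were called higher and blue genes lower at 6 h: Fos, Txnip and Hey1 stay high, Lrig1, Purg and Lrr1 peak at 6 h, Fst, Nupr1 and Foxa1 stay low, and Il24, Ptgs2, Mmp13 and Pigc are lowest at 6 h. The genes that peak or are lowest at 6 h were chosen for a reversal after 6 h.

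The step from 12 to 24 h shares no array with the step from 0 to 6 h. In the main fit both steps use 1 estimate of each gene's spread from all 8 arrays, so their calls are not independent. Over all genes 133 were called higher (1.81%) and 263 lower (3.58%) from 12 to 24 h. Of the 665 early rises 20 were called higher again (3.01%) and 16 lower (2.41%), and of the 490 early falls 25 were called lower again (5.10%) and 7 higher (1.43%). These counts are small. With the 4 arrays of each step fitted alone they were 15, 13, 19 and 4 in the same order. Array 2 minus array 1 correlated weakly between times (r = 0.125 to 0.382 over genes), which does not show that cultures were paired, and the labels state no pairing. With the arrays paired by number, the counts became 42, 32, 44 and 21. Without 1 of the 8 arrays they ranged over 1 to 11, 3 to 9, 3 to 14 and 1 to 7, and with no filter on signal they were 1, 1, 4 and 1. The genes that fell in both steps included Hmgb2, Ccna2, Plk1 and Tk1, genes of dividing cells, with log2 changes from 12 to 24 h of -2.05, -1.86, -1.21 and -1.08, and those that rose in both included Mmp10 (1.68) and Ndrg1, a gene of differentiation and hypoxia (1.12). These examples were chosen after their values were seen. At 6 h the changes of Plk1, Tk1 and Ndrg1 were -0.81 ± 0.19 (adjusted p up to 0.131 without 0 h array 1, 6 h array 1 or 6 h array 2 and with no filter), -0.86 ± 0.19 (adjusted p up to 0.0816 without 0 h array 1, 0 h array 2 or 6 h array 1 and with no filter) and 0.96 ± 0.19 (adjusted p up to 0.0701 without 0 h array 2 and with no filter).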

How the data were processed

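RNA of MCE301 cells was measured on Affymetrix Mouse Expression Array 430A, 1 array per sample, per the labels. The authors deposited 22690 probe sets with a linear intensity (signal) per array; which software summarised the probes stays unstated in the sources used here. The equal trimmed means show that the deposited intensities had been scaled. The 64 control probe sets were left out. Of the rest, 20380 had 1 gene in the platform annotation and 691 had several; 1555 were not listed there. Names were updated through RefSeq gene tables of GRCm38.p6 (20351 matched).

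Probe sets were kept when at least 2 of the 8 arrays exceeded the median of all signals (144.7), and 1 kept probe set per gene entered the fit, the brightest on average. Log2(signal + 32) of all 8 arrays was fitted in limma 3.58.1 (R 4.3.3) with lmFit and eBayes (residual df 4, prior df 6.37), and p-values were adjusted over 7340 genes by Benjamini-Hochberg. Values after ± are standard errors of the fit, and signals are listed as array 1 and then array 2 (n = 2 at each time); 2 arrays a group limit the precision. The script was tested on simulated data. The main fit had time as its only factor and did not pair the arrays. Pairing by replicate number was used in 1 alternative, the replicate block. It was tried because array 2 minus array 1 over genes gave r = 0.125 to 0.382 in each of the 6 pairs of times. The labels do not state a pairing.

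Named genes are the 15 largest called rises and falls, up to 4 called members of each of 44 lists, a fixed set, and the 5 rises and 5 falls that reversed most by 12 h; Ankrd1, Arntl, Chac1, Irf8, Nfil3, Tgfbr2, Tgif1, Trib3, Usp18 and Zfp36 were added after their values were seen. Members, lists and rules were chosen with earlier results of these data known. The 13 alternatives were pseudocounts of 16 and 64, no filter, a stricter filter (4 of 8 arrays), quantile normalization, a replicate block, trended robust eBayes, the 4 arrays alone, all probe sets, and leaving out each of the 4 arrays (the lone array is then assumed to vary like the others). Figures were drawn with matplotlib 3.10.9.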

Additional observations from a re-analysis of the deposited data

Results flagged for a closer look

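Some probe sets outside the gene table were called as well. These calls come from a limma fit of all 12440 kept probe sets, adjusted over that set, with the threshold unchanged. Their shares are thus not on the same footing as the 15.7% of 7340 genes in the main fit. With all probe sets of 1 gene fitted, 801 were called higher and 582 lower of 11505. Among 524 kept probe sets with no gene listed in the annotation, 70 (13.4%) were called, 32 higher and 38 lower. The largest of these changes was in probe set 1423702_at, with signals of 3609 and 3589 at 0 h and 10235 and 13836 at 6 h, a log2 change of 1.72 (adjusted p = 0.00186). Probe set 1450522_a_at had 4819 and 4361 at 0 h and 13051 and 14767 at 6 h (log2 change 1.59). Among 411 kept probe sets with several genes, 22 (5.35%) were called, 9 higher and 13 lower. None of these probe sets entered a count of genes above.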

How the results depend on the processing

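The 665 genes called higher and 490 called lower stayed within 1.5 times with pseudocounts of 16 and 64, the stricter filter, quantile normalization, the replicate block, the trended robust fit, the 4 arrays alone and all probe sets. The last of these alternatives counts probe sets and not genes. Every one of the 665 and 490 genes was also called with the replicate block (911 and 684 calls). With no filter 272 and 158 were called among 12393 genes. Without 1 of the 4 arrays 299 to 403 were called higher and 160 to 286 lower, with 1 array fewer in the fit. From 12 to 24 h, the 20 early rises called higher became 1 with no filter, 42 with the replicate block and 1 to 11 without 1 array, and the 16 called lower became 1, 32 and 3 to 9. The 25 early falls called lower became 4, 44 and 3 to 14, and the 7 called higher became 1, 21 and 1 to 7, and 4 with the 4 arrays of each step alone. Of 192 named genes, values changed sign under an alternative in 5 genes, none of them called: Arrdc4 (log2 change -0.082 to 0.44 without 1 array), Cdkn1b (-0.036 to 0.11), Klf6 (-0.49 to 0.050), Hexim1 (-0.079 to 0.33) and Brd2 (-0.18 to 0.17). Calls were lost in 363 pairs of gene and alternative and gained in 5, against 2104 that kept their side; the cause was not tested. Signals of 23.8% to 26.4% of probe sets on the 4 arrays lay below the pseudocount of 32, where little can be measured.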
